A study of Mus musculus with 6 samples.

Results

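Chromatin accessibility at nuclear genes for the mitochondrial ribosome, the respiratory chain and mitochondrial protein import was compared between NIH3T3 lines with an active and an inactive ribozyme. The genes were those whose symbol begins with Mrpl, Mrps, Nduf, Cox and a digit, Atp5, Uqcr, Sdha to Sdhd, Timm or Tomm. For each gene, the region centred within 1000 bp of the annotated start site with the highest mean over the 6 libraries stood for its promoter. Of 160 genes with such a symbol, 149 had a promoter region, out of 9331 protein-coding genes with one in the whole table. The other 11 (Atp5g2, Cox4i2, Cox5b-ps, Cox7a1, Cox7a2l, Cox8b, Mrpl35, Ndufa4l2, Ndufs6, Tomm20l and Uqcr10) had regions only farther from the start site. All 149 promoter regions passed the filter on low values, a mean of at least 10.

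The active group consisted of 3 libraries of NIH3T3, an immortal and aneuploid mouse fibroblast line, with the self-cleaving T3H48 hammerhead ribozyme inserted in intron 3 of Actg1, the gene of gamma-actin. The inactive group consisted of 3 libraries of the same cell line with a catalytically dead T3H48 ribozyme in that intron, so both groups carried a knock-in and no unedited cells were compared. The labels speak of stable genotyped lines but give neither the number of clones nor whether the libraries of a group were separate cultures. The p-values therefore speak of the differences among these 6 libraries alone, whose source may be technical, and ribozyme activity cannot be told apart from the identity of the lines. In ATAC-seq the Tn5 transposase tags open chromatin, and the value of a region is its number of reads after each library was scaled, called normalised reads here. The totals over all regions lay between 6433944 and 6548535 normalised reads. From the spacing of the whole numbers, the active libraries held an estimated 3700000 to 6840000 reads in regions and the inactive ones 7330000 to 8960000, so that counting error is larger in the active group. In such bulk libraries fewer cells with an open region, less opening per cell and fewer copies of the chromosome cannot be told apart.

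Mitochondria keep a small genome that encodes a few respiratory chain subunits and the RNAs of their own ribosome. Every protein of that ribosome, most subunits of complexes I, III, IV and V, all of complex II and the whole import apparatus are encoded in the nucleus. Complexes I to IV pass electrons from NADH and succinate to oxygen, complexes I, III and IV pump protons, complex V makes ATP from the proton gradient, and the TOM and TIM complexes bring nuclear-encoded proteins across the outer and inner membrane. The nuclear factors NRF1, GABP (an ETS factor), YY1 and SP1 are known for binding many of these promoters. Most of the genes are expressed in nearly all cell types, fibroblasts included.

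The promoters of these genes were mostly lower or not different in the active libraries, and few were higher. With the deposited values, 60 of the 149 promoters fell (40.3%) and 18 rose (12.1%) in active against inactive libraries by limma, at an adjusted p under 0.05 over all 51253 regions tested. Over the promoter regions of all protein-coding genes, 37.7% were lower and 21.1% were higher by the same fit, and over all regions tested 29.2% were lower and 30.9% higher. The share of lower promoters was thus near that of genes in general, and the share of higher ones was below it. Among genes whose promoter mean lay within the range of these 149, a comparison added after the data were seen, 38.4% were lower and 20.2% higher. The median log2 fold change, active over inactive on the log2(value + 1) scale, was -0.15 for the 149 promoters and -0.11 for all protein-coding genes. Changes of at least 2-fold were found in 5 of the 149 (3.36%) and in 4.73% of all genes. When limma was run without its mean trend, 40 of the 149 fell and 11 rose, and of the genes described here Atp5b, Cox8a, Cox18, Cox20, Mrpl18 and Ndufa11 then lost their call (adjusted p from 0.0617 to 0.229).

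Whole stretches of chromosome differed between both groups in these data, so each promoter was also measured relative to its 10 Mb window. For this, the median deviation of all tested regions in the window was subtracted in each library before the same fit. Relative to the window, 45 promoters were lower (30.2%), 3 were higher (2.01%) and 101 did not pass. The corresponding shares of all gene promoters were 24.3% lower and 11.9% higher, those of genes within the same range of means were 24.4% lower and 10.5% higher, and those of all regions were 24.3% lower and 26.7% higher. The median centred log2 fold change was -0.11 for the 149 promoters against -0.06 for all protein-coding genes. Centred on the promoter regions of the window alone, which left 140 of the 149 genes, 25 were lower (17.9%) and 10 higher (7.14%), against 14.2% and 15.7% of all gene promoters. Of the 60 promoters that fell, 34 were also lower relative to their window, whereas of the 18 that rose only Cox16 was also higher relative to its window. The calls of both fits were not crossed for all gene promoters, so this contrast is not shown to be particular to these genes. Cox16 passed the filter on low values through its active libraries alone. Mrpl36, another of the 18, passed as well in 6 of the alternatives, those without active replicate 2 or inactive replicate 3 among them. The 3 promoters higher relative to the window were 6 without active replicate 2 and 5 without active replicate 3 or inactive replicate 3. Without limma's mean trend, 19 were lower and 1 was higher.

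**Figure D1:**
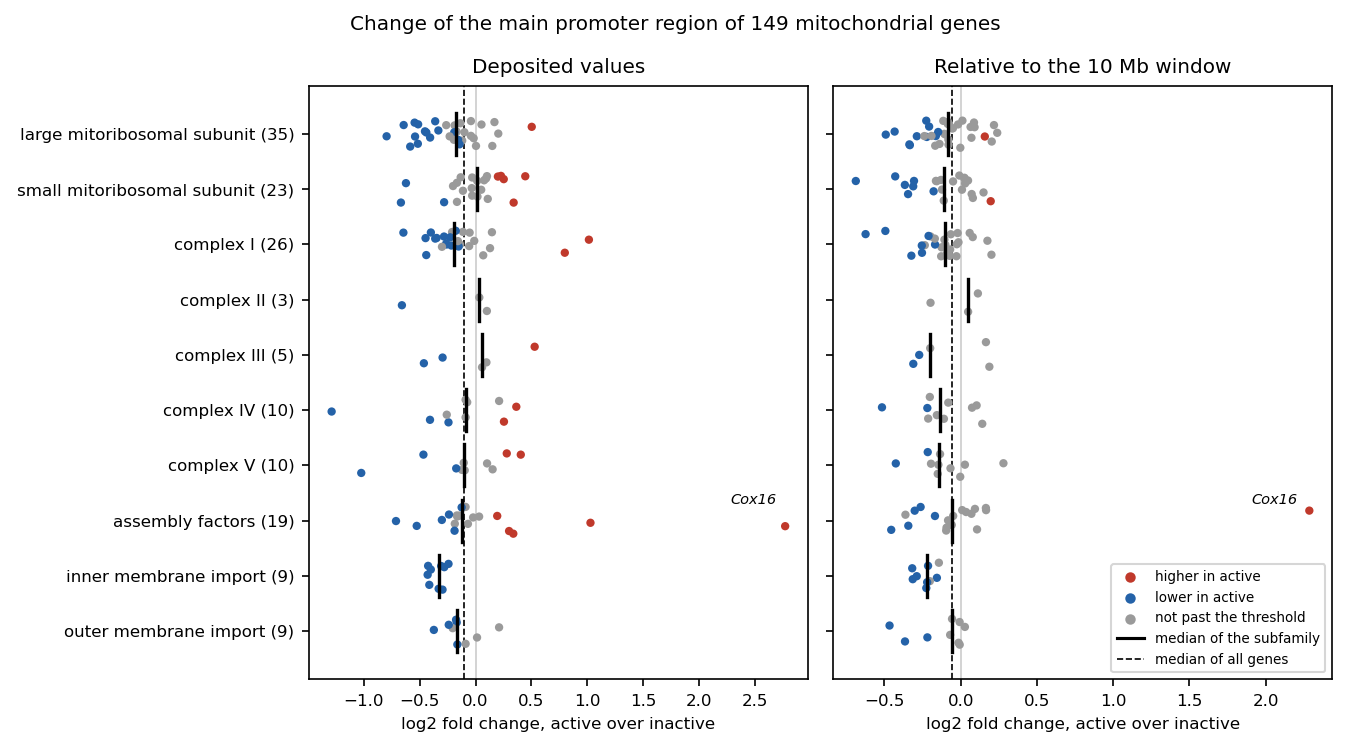
Log2 fold change of the promoter region (active over inactive libraries, n = 3 each) for 149 genes in 10 subfamilies, with deposited values on the left and values relative to the 10 Mb window on the right. Each point is a gene, coloured by its limma call, the black bars are subfamily medians and the dashed line is the median of all genes (-0.11 on the left, -0.06 on the right). All 9 inner membrane import genes lie between -0.43 and -0.24 on the left, and Cox16 at 2.77 stands apart from the other assembly factors.

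Levels between genes were compared per kb of region. Over all libraries, the 149 promoters had a median of 245.9 normalised reads per kb and ranged from 71.7 for Cox6c, a complex IV subunit, to 849 for Mrpl18, a protein of the large mitoribosomal subunit. All protein-coding genes had a median of 273 normalised reads per kb. The outer membrane import genes had the highest subfamily median, 408 normalised reads per kb, and complex III the lowest, 164. The widths of the regions had a median of 828 bp for these genes and of 893 bp for all genes.

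Promoter sequences were matched by symbol for 130 of the 149 genes, as the 250 bases before the start in the RefSeq annotation of GRCm38.p6, on both strands of which 4 motifs were searched. The letters were GCATGCGC for NRF1, CCGGAAG for ETS factors, AAGATGGCG for YY1 and GGGCGG for SP factors. Shown are the promoters on which the comparisons with the window turn (Sdhaf3, Cox5a, Atp5l, Mrps18a and Ndufb2) and that of Ndufa11, the promoter region with the most normalised reads. Capitals mark motif letters, read on either strand, and each sequence runs 5′ to 3′ along the gene. The coordinates are those of GRCm38.p6, whereas all region coordinates in the text are those of mm39.
Sdhaf3 (chr6:6955768-6956017, plus strand): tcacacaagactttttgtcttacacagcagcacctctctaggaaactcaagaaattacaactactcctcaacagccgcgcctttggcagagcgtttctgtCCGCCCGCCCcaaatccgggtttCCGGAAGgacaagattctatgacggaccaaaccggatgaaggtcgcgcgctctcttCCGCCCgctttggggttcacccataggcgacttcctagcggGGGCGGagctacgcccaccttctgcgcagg
Cox5a (chr9:57520982-57521231, plus strand): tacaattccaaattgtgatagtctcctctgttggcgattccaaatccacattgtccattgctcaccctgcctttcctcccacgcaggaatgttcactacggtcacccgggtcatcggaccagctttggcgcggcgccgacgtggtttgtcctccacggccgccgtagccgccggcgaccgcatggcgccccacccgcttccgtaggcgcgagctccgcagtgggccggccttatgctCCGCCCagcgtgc
Atp5l (chr9:44920743-44920992, minus strand): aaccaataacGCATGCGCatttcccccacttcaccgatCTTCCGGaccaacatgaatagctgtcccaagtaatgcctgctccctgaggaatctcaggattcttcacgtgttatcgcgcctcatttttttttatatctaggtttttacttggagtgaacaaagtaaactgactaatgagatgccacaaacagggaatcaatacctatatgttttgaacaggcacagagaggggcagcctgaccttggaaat
Mrps18a (chr17:46110754-46111003, plus strand): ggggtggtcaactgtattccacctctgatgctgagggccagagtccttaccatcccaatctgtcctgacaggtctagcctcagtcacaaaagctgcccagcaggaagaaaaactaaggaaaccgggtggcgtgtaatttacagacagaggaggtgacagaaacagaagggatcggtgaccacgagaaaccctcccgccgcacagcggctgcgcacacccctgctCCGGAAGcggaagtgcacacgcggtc
Ndufb2 (chr6:39592315-39592564, plus strand): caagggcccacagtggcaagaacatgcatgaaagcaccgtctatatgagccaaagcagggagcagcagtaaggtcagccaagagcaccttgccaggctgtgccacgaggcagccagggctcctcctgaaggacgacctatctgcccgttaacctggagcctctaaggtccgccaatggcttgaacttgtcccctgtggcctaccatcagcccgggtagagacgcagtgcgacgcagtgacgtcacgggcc
Ndufa11 (chr17:56717512-56717761, plus strand): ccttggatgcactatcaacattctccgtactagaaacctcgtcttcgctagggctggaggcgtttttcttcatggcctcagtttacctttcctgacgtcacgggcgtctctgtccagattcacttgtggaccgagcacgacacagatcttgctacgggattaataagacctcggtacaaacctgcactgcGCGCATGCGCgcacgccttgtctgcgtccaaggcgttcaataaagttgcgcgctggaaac
Sdhaf3 held ETS and SP letters, Cox5a SP letters, Atp5l NRF1 and ETS letters and Mrps18a ETS letters, while none of the 4 motifs was found in this stretch of Ndufb2. In Ndufa11 the NRF1 letters were found on both strands in overlapping positions.

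The ETS letters were in 33 of the 130 promoters (25.4%), against 14.5% of 7421 protein-coding genes with a promoter region and 7.05% of all 27025 promoters in the annotation. The NRF1 letters were in 13 (10%), against 4.93% and 2.32%. The YY1 letters were in 2 (1.54%), against 1.17% and 0.607%. The SP letters went the other way among accessible genes, with 57 of the 130 promoters (43.8%) against 62.2% of protein-coding genes with a promoter region and 32.9% of all promoters. None of the 4 motifs was found in 50 of the 130 (38.5%), against 30.4% and 62.8%. NRF1 letters were in 5 of 30 large mitoribosomal promoters and in 0 of 21 small mitoribosomal promoters, and ETS letters were in 7 of 16 assembly factor promoters and in 2 of 25 complex I promoters.

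The change between groups was described separately for promoters with and without each motif. The median log2 fold change was -0.16 over the 33 promoters with ETS letters and -0.15 over the 97 without, with 13 and 40 lower. It was -0.15 over the 13 with NRF1 letters and -0.16 over the 117 without. The median level was 299 normalised reads per kb with SP letters and 198 without, 216 with ETS letters and 256 without, and 246.5 with NRF1 letters and 245.9 without. A start site of another gene on the opposite strand lay within 1000 bp upstream of 30 of the 130 genes (23.1%), against 15.6% of protein-coding genes with a promoter region and 11.4% of all genes. In several of these pairs both partners serve mitochondria: Sdhd faces Timm8b, Mrps11 faces Mrpl46, and Ndufb5 faces Mrpl47. Both starts of such a pair can lie in 1 region, which is listed here under the gene to which the table assigns it.

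All 9 inner membrane import genes had lower promoter accessibility in the active libraries, by limma at an adjusted p under 0.05. Over all gene promoters the share of lower ones was 37.7%. The sum over the 9 promoters was 2132, 2158 and 2012 normalised reads in the active libraries, against 2623, 2632 and 2711 in the inactive libraries. Every active sum lay below every inactive sum. The same held for the sums over the promoters of all protein-coding genes, 2737860 to 2830080 in active and 2842835 to 2924640 in inactive libraries. The median log2 fold change was -0.33, with a range from -0.43 to -0.24, against a median of -0.11 for all genes. The 9 genes lie on 8 chromosomes, Timm17b and Timm8a1 sharing the X chromosome. The count of 9 held without each library in turn and was 7 when limma was run without its mean trend.

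Timm13, a small chaperone of the space between both membranes, had the most normalised reads of the group. They were 411, 364 and 346 normalised reads in active libraries, against 436, 476 and 474 in inactive libraries (limma log2 fold change of -0.31 ± 0.07 SE and adjusted p = 0.000146). All active values lay below the inactive ones. Timm21, a subunit of the TIM23 translocase, had 274, 300 and 267 normalised reads in active libraries, against 381, 370 and 381 in inactive libraries, without overlap (limma log2 fold change of -0.43 ± 0.07 SE and adjusted p = 1.78e-06). Timm50, the receptor of that translocase, and Timm44, which tethers the import motor to it, fell by 0.42 and 0.28 on the log2 scale. Timm17a and Timm17b, its channel subunits, fell by 0.24 and 0.33. Timm22, the carrier translocase, and its chaperones Timm10 and Timm8a1 fell by 0.40, 0.41 and 0.30.

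Relative to the 10 Mb window, 7 of the 9 inner membrane import promoters stayed lower, and Timm50 and Timm22 did not pass (centred log2 fold changes -0.20 and -0.14, adjusted p = 0.0694 and 0.233 by limma). The share of 77.8% lower stood against 24.3% of all gene promoters, and the median centred log2 fold change of the 9 was -0.22. This count depended on the setting: 4 of the 8 genes that could be centred on promoter regions alone were lower. After quantile normalization 2 of 9 were lower, and likewise 2 of 9 with limma run without its mean trend. It also stood at 4 of 9 without active replicate 3.

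Of the 9 outer membrane import genes, 5 fell (55.6%, against 37.7% of all gene promoters) and 0 rose (against 21.1%). The median log2 fold change of the 9 was -0.17. Only 2 fell without active replicate 3 or with limma run without its mean trend, and 3 without inactive replicate 3 or with quantile normalization. Tomm40, the channel of the outer membrane, had 571, 576 and 530 normalised reads in active libraries, against 655, 652 and 673 in inactive libraries (limma log2 fold change of -0.24 ± 0.05 SE and adjusted p = 0.000251), without overlap. The others were its homologue Tomm40l (-0.17), the receptors Tomm20 (-0.16) and Tomm70a (-0.17), and Tomm5, a small subunit (-0.37). Tomm6, another small subunit with the most normalised reads of the group, had 728, 756 and 728 in active libraries and 713, 713 and 767 in inactive libraries, which overlapped (adjusted p = 0.839 by limma). The receptor Tomm22 was at 0.21 and did not pass (adjusted p = 0.131 by limma). Relative to the window, Tomm5, Tomm7 and Tomm40l were lower (33.3%, against 24.3% of all gene promoters) and 0 were higher (against 11.9%).

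Among the 35 genes of the large mitoribosomal subunit, 15 fell (42.9%) and only Mrpl36 rose (2.86%), with a median log2 fold change of -0.18. Among the 23 genes named for the small subunit, 3 fell (13.0%) and 5 rose (21.7%), with a median of 0.01. Over all gene promoters, 37.7% fell and 21.1% rose, so the share of lower promoters in the large subunit was near that of genes in general. These counts for the small subunit depended on single libraries, with 6 lower and 5 higher without active replicate 2, and 3 lower and 3 higher without active replicate 3 or inactive replicate 2. The difference between both subunits was not tested. The promoter sum of the large subunit was 7537, 7617 and 7152 normalised reads in active libraries, against 8388, 8572 and 8502 in inactive libraries. That of the small subunit was 5760, 5882 and 5666 in active libraries, against 5686, 5644 and 5741 in inactive libraries. The sums of the large subunit did not overlap, and those of the small subunit did. The sums over all protein-coding genes did not overlap either. Relative to the window the 2 subunits had near medians, -0.08 for the large and -0.11 for the small, with 10 and 7 promoters lower. These were 28.6% and 30.4%, against 24.3% of all gene promoters. The count of 10 for the large subunit was 5 to 6 when active replicate 3 or any inactive library was left out. It was 5 with 5 Mb windows, 4 with promoter regions as neighbourhood, 6 with quantile normalization and 2 without limma's mean trend, which also gave 4 for the small subunit.

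Mrpl4, a large subunit protein, showed the lowest log2 fold change of that subunit. Its region (chr9:20913904-20914825) had 76, 78 and 69 normalised reads in active libraries, against 131, 132 and 126 in inactive libraries. The groups were far apart, with a log2 fold change of -0.80 ± 0.12 SE (adjusted p = 2.93e-07 by limma), yet the window fell by 0.71 and the centred log2 fold change was -0.08 (adjusted p = 0.582 by limma). Mrpl36 (chr13:73476335-73476877) had 210, 198 and 207 normalised reads in active libraries, against 134, 143 and 157 in inactive libraries (limma log2 fold change of 0.50 ± 0.09 SE and adjusted p = 1.31e-05), without overlap. Its window rose by 0.30, and the centred value of 0.20 did not pass (adjusted p = 0.0614 by limma), but did with 5 Mb windows (0.28, adjusted p = 0.01 by limma) and without active replicate 2 or inactive replicate 3 (adjusted p = 0.0474 and 0.0422 by limma). Mrpl18, whose start faces that of the chaperonin gene Tcp1, had 782, 815 and 795 normalised reads in active libraries, against 874, 918 and 875 in inactive libraries, a small change without overlap (limma log2 fold change of -0.16 ± 0.05 SE and adjusted p = 0.00473).

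Mrpl42 (chr10:95337355-95337941) had 81, 85 and 65 normalised reads in active libraries, against 116, 111 and 103 in inactive libraries, without overlap. Its log2 fold change of -0.52 ± 0.13 SE (adjusted p = 0.00064 by limma) stood beside a window near 0, so that the centred log2 fold change was -0.49. Mrpl17 had 387, 362 and 370 normalised reads in active libraries and 360, 375 and 381 in inactive libraries, which overlapped. Its centred value of 0.16 passed (adjusted p = 0.0408 by limma) since the window fell by 0.15. That call was lost without any of 5 of the 6 libraries in turn, with adjusted p from 0.0608 to 0.16 by limma. It was also lost with 5 Mb windows (adjusted p = 0.318 by limma), the whole chromosome (0.164) or distal regions (0.0859) as neighbourhood. A mean of at least 30 (0.0687), the replicate block (0.0555) and limma without its mean trend (0.163) lost it too.

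Mrps18a had the lowest value among the genes named for the small subunit, although its protein is placed in the large subunit of mammalian mitoribosomes. Its region (chr17:46421668-46422195, centred 20 bp from the start site) had 73, 71 and 73 normalised reads in active libraries, against 113, 110 and 124 in inactive libraries. The groups did not overlap, and the log2 fold change was -0.67 ± 0.12 SE (adjusted p = 1.18e-05 by limma). The window stood at 0.02, so that the centred log2 fold change of -0.69 was the lowest of all 149 genes (adjusted p = 1.04e-05 by limma). Of the 10 other regions tested within 100 kb, 8 fell, among them the promoters of Vegfa, Mad2l1bp, Gtpbp2 and Xpo5, and 1 with no annotated gene rose (log2 fold change 2.69). That region had 45, 58 and 53 normalised reads in active libraries against 4, 9 and 10 in inactive ones. It passed the filter on low values through its active libraries alone.

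Among the small subunit genes that rose were Mrps30 (log2 fold change 0.44), which is also placed in the large subunit in mammals, Mrps33 (0.34), Mrps18c (0.25), Mrps17 (0.23) and Mrps16 (0.20). Mrps33 (chr6:39787557-39788085) had 291, 316 and 282 normalised reads in active libraries, against 223, 236 and 242 in inactive libraries. Although the groups did not overlap and the value rose, it stood below its window, which rose by 0.77, and the centred log2 fold change was -0.43 (adjusted p = 1.1e-05 by limma). Mrps28 had the most normalised reads of the subunit, with 587, 557 and 556 in active libraries and 558, 552 and 573 in inactive libraries, which overlapped (adjusted p = 0.84 by limma). Mrps9 had 324, 318 and 308 normalised reads in active libraries and 312, 292 and 297 in inactive libraries, which overlapped. Its centred value of 0.20 passed (adjusted p = 0.0181 by limma), and was lost without inactive replicate 2 or 3 (adjusted p = 0.118 and 0.0546 by limma). With 5 Mb windows it was 0.06 (adjusted p = 0.486 by limma), with sliding windows 0.12 (0.154) and with the whole chromosome 0.04 (0.689), and without limma's mean trend it did not pass (0.0925).

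**Figure D2:**
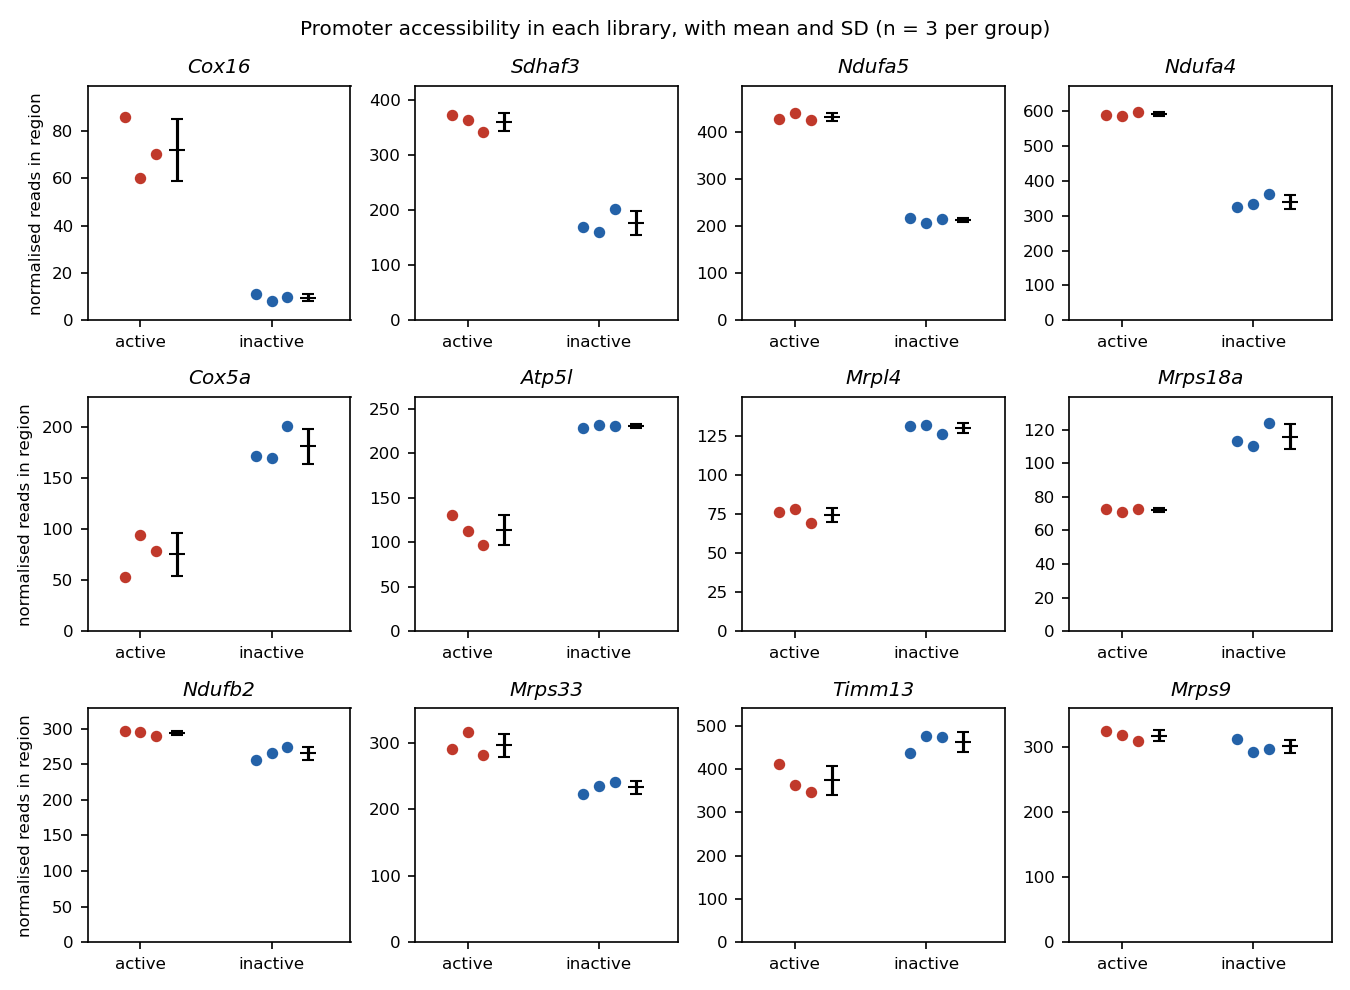
Normalised reads in the promoter region of 12 genes in each of the 3 active (left, red) and 3 inactive (right, blue) libraries, with the mean and SD of each group in black. Cox16, Sdhaf3, Ndufa5 and Ndufa4 are higher in every active library, Cox5a, Atp5l, Mrpl4 and Mrps18a are lower in every active library, and the groups of Mrps9 overlap.

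Of the 26 complex I genes, 13 fell (50%) and 2 rose (7.69%), against 37.7% and 21.1% of all gene promoters. The median log2 fold change of complex I was -0.19. The count of lower promoters was 6 with limma run without its mean trend. The 2 that rose, Ndufa5 and Ndufa4, lie in neighbouring windows of chromosome 6. Ndufa5, an accessory subunit (chr6:24527274-24527969), had 427, 440 and 424 normalised reads in active libraries, against 217, 207 and 214 in inactive libraries (limma log2 fold change of 1.01 ± 0.07 SE and adjusted p = 1.26e-15). Ndufa4, named for complex I but now held to be a complex IV subunit (chr6:11907060-11908018), had 588, 585 and 596 in active libraries, against 324, 332 and 361 in inactive libraries (limma log2 fold change of 0.80 ± 0.06 SE and adjusted p = 2.58e-14). In both genes the groups were widely separated. Their windows rose by 1.09 and 0.92, and relative to them neither passed (centred log2 fold changes -0.07 and -0.13, adjusted p = 0.408 and 0.092 by limma).

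Ndufs7, which carries the last iron-sulphur cluster before ubiquinone, had the lowest log2 fold change of complex I. Its region (chr10:80084722-80085658) had 229, 207 and 176 normalised reads in active libraries, against 328, 313 and 313 in inactive libraries. The groups did not overlap, and by limma both the log2 fold change (-0.65 ± 0.08 SE with adjusted p = 1.44e-08) and the centred one (-0.49, adjusted p = 4.19e-06 by limma) passed. Of the 21 other regions tested within 100 kb, 17 fell and 3 rose. The flavoprotein subunit Ndufv1 (-0.45) and the iron-sulphur subunit Ndufs8 (-0.36), which share a window on chromosome 19, fell with that window and did not pass relative to it. Ndufa11 had the most normalised reads of all 149 genes, 810, 841 and 839 in active libraries against 875, 946 and 947 in inactive libraries, and fell by 0.15 on the log2 scale without overlap (adjusted p = 0.0063 by limma).

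Ndufb2, a subunit of the membrane arm, did not pass the threshold with the deposited values and stood far below its surroundings. Its region (chr6:39569114-39570015) had 296, 295 and 290 normalised reads in active libraries, against 256, 266 and 274 in inactive libraries. The groups did not overlap, but the log2 fold change of 0.15 ± 0.07 SE did not pass (adjusted p = 0.0842 by limma). Its window rose by 0.77, and the centred log2 fold change was -0.62 (adjusted p = 3.87e-09 by limma). All 3 other regions tested within 100 kb rose: that of Dennd2a (2.46), one with no annotated gene (2.94) and that of Adck2 (0.26). Its promoter and that of Mrps33 lie in the same window and were both lower relative to it.

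Complex II, which oxidises succinate and has no mitochondrially encoded subunit, had 3 genes in the table. Sdhd, a membrane anchor (chr9:50514683-50515624), had 178, 152 and 165 normalised reads in active libraries, against 268, 259 and 255 in inactive libraries, without overlap. It fell (limma log2 fold change of -0.66 ± 0.09 SE and adjusted p = 1.6e-08), but its window on chromosome 9 fell by 0.77, and the centred value was 0.11 (adjusted p = 0.271 by limma). Sdhb, the iron-sulphur subunit, had 345, 355 and 354 in active libraries and 322, 346 and 363 in inactive libraries. Sdha, the flavoprotein, had 215, 198 and 195 in active libraries and 200, 192 and 175 in inactive libraries. Both overlapped between groups and did not pass (adjusted p = 0.693 for Sdhb and 0.328 for Sdha by limma).

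In complex III, Uqcrb rose, Uqcr11 (-0.46) and the core protein Uqcrc1 (-0.30) fell, and 2 genes did not pass. These shares of 20% higher and 40% lower stood against 21.1% and 37.7% of all gene promoters. Without inactive replicate 2, only 1 gene of the complex fell. Uqcrb (chr13:67052919-67053692) had 177, 210 and 169 normalised reads in active libraries, against 124, 126 and 133 in inactive libraries, without overlap (limma log2 fold change of 0.53 ± 0.10 SE and adjusted p = 1.9e-05). Its window rose by 0.36 and the centred value of 0.17 did not pass (adjusted p = 0.163 by limma). The Rieske iron-sulphur protein Uqcrfs1 had 221, 256 and 200 in active libraries and 207, 207 and 234 in inactive libraries, which overlapped. It did not pass by the deposited values (adjusted p = 0.59 by limma), and relative to a window that rose by 0.33 it was lower (centred log2 fold change -0.27, adjusted p = 0.0102 by limma). That call was lost without active replicate 3 or inactive replicate 3 (adjusted p = 0.108 and 0.129 by limma), and with 5 Mb windows, promoter regions as neighbourhood, quantile normalization or limma without its mean trend (adjusted p from 0.0988 to 0.278).

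Of the 10 complex IV genes, 3 fell (30%) and 2 rose (20%), against 37.7% and 21.1% of all gene promoters. The count of 2 was 0 without inactive replicate 1, 1 without inactive replicate 2 or 3, and 3 without active replicate 3. Cox5a, a nuclear-encoded structural subunit (chr9:57428149-57429036), had the lowest log2 fold change of all 149 genes. It had 53, 94 and 79 normalised reads in active libraries, against 172, 170 and 201 in inactive libraries, so that every active value was well below every inactive one. The mean was 75.3 ± 20.7 in active and 181 ± 17.3 in inactive libraries (SD, n = 3 each; limma log2 fold change of -1.29 ± 0.14 SE and adjusted p = 1.68e-09). Its window fell by 0.77, and the centred log2 fold change of -0.52 passed (adjusted p = 0.00378 by limma), but not with limma run without its mean trend (adjusted p = 0.104). All 8 other regions tested within 100 kb fell, with log2 fold changes from -1.56 to -0.82. Among them, a region with 7, 9 and 10 normalised reads in active libraries against 20, 18 and 15 in inactive ones passed the filter through its inactive libraries alone. Cox7a2 (-0.41) and Cox8a (-0.24) were the others that fell, and Cox6c (0.36) and Cox6a1 (0.25) rose. Cox8a, with the most normalised reads of the complex, had 391, 419 and 369 in active libraries, against 484, 451 and 459 in inactive libraries, without overlap. Relative to a window that fell by 0.35 its value was 0.10 and did not pass (adjusted p = 0.193 by limma).

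Of the 10 complex V genes, 3 fell (30%) and 2 rose (20%), against 37.7% and 21.1% of all gene promoters. Only 1 rose when active replicate 1 was left out, and likewise for inactive replicates 1 and 3. Only 2 fell when active replicate 3 was left out, and likewise for inactive replicates 2 and 3. Atp5l, subunit g of the membrane part of ATP synthase (chr9:44831718-44832880), had 131, 113 and 97 normalised reads in active libraries, against 228, 232 and 231 in inactive libraries. The inactive values were nearly equal and far above the active ones (limma log2 fold change of -1.02 ± 0.10 SE and adjusted p = 1.8e-11). Its window fell by 0.60, and the centred log2 fold change of -0.43 passed (adjusted p = 0.000635 by limma). All 5 other regions tested within 100 kb fell, those of Kmt2a, Ube4a and Cd3d among them. The Cd3d region, with 6, 7 and 7 normalised reads in active libraries against 34, 38 and 44 in inactive ones, passed the filter on low values through its inactive libraries alone. The rotor subunit Atp5c1 fell by 0.47 on the log2 scale, and Atp5mpl (0.40) and Atp5k (0.28), small subunits of the membrane part, rose. The catalytic subunit Atp5b had 389, 350 and 311 in active libraries and 378, 403 and 399 in inactive libraries. Its groups overlapped, and its fall (-0.17, adjusted p = 0.0354 by limma) was lost when active replicate 3 was left out (adjusted p = 0.299), and likewise inactive replicate 2 (0.116) and inactive replicate 3 (0.101).

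Among the 19 assembly factors, 6 fell (31.6%) and 5 rose (26.3%), against 37.7% and 21.1% of all gene promoters. The counts were 3 and 3 without limma's mean trend. Cox16, an assembly factor of complex IV, had the largest change of all 149 genes. Its region (chr12:81531571-81531948, 377 bp wide and centred 141 bp from the start site) had 86, 60 and 70 normalised reads in active libraries, against 11, 8 and 10 in inactive libraries. The groups were far apart, with means of 72.0 ± 13.1 and 9.67 ± 1.53 (SD, n = 3 each), a ratio of 7.45, and a log2 fold change of 2.77 ± 0.23 SE. Its window rose by 0.48, and the centred log2 fold change was 2.29. Its mean over the 6 libraries, 40.8 normalised reads, was the lowest of the 149 genes. Its inactive mean lay under the filter of 10, so Cox16 passed that filter through its active libraries alone. No p-value is therefore given for it, although it is counted among the calls above. With no filter the log2 fold change was again 2.77. Of 2 other regions tested within 100 kb, one with no annotated gene rose (0.91) and that of Gm20498, centred 47739 bp away, did not pass (0.19, adjusted p = 0.239 by limma).

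Sdhaf3, an assembly factor of complex II (chr6:6955647-6956545), had 374, 364 and 343 normalised reads in active libraries, against 169, 160 and 202 in inactive libraries, without overlap. It rose (limma log2 fold change of 1.03 ± 0.08 SE and adjusted p = 8.37e-14) by as much as its window, which rose by 1.02, and the centred value was 0.01 (adjusted p = 0.931 by limma). All 4 other regions tested within 100 kb rose, those of the developmental genes Dlx5 and Dlx6 among them. The Dlx6 region had 34, 53 and 44 normalised reads in active libraries against 6, 6 and 4 in inactive ones. It passed the filter on low values through its active libraries alone, as did the region with no annotated gene (28, 18 and 31 against 10, 10 and 5). Centred on promoter regions alone, it was higher by 0.28 (adjusted p = 0.004 by limma).

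Cox17, the copper chaperone of complex IV (chr16:38167208-38167669), had 137, 138 and 130 normalised reads in active libraries, against 223, 242 and 202 in inactive libraries, without overlap. It fell (limma log2 fold change of -0.71 ± 0.09 SE and adjusted p = 1.94e-08) and was also lower relative to its window (-0.46, adjusted p = 7.75e-05 by limma). Of the 12 other regions tested within 100 kb, 3 fell and 3 rose. Among those that rose was a region with 12, 16 and 21 normalised reads in active libraries, against 11, 6 and 9 in inactive libraries. That region passed the filter on low values through its active libraries alone. Cox18, which inserts a mitochondrially encoded subunit into the inner membrane, rose slightly and stood below its window. It had 425, 426 and 437 in active libraries, against 375, 367 and 384 in inactive libraries, without overlap (limma log2 fold change of 0.19 ± 0.06 SE and adjusted p = 0.00839), with a centred log2 fold change of -0.26 (adjusted p = 0.000566 by limma). Mrps33 and Cox18 were the only genes of the 149 called in opposite directions by both fits. Cox20, the assembly factor with the most normalised reads, had 748, 776 and 732 in active libraries, against 837, 821 and 802 in inactive libraries, without overlap. Its fall (-0.12, adjusted p = 0.0268 by limma) was lost when active replicate 3, inactive replicate 1 or inactive replicate 2 was left out (adjusted p = 0.0954, 0.104 and 0.0677 by limma).

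The direction of a promoter mostly followed the direction of its chromosomal window. The 149 genes lay in 109 windows, 29 of which held 2 or more of them. Of the 53 promoters in windows with a median above 0, 18 rose and 7 fell, and of the 96 in windows below 0, 0 rose and 53 fell. Over all gene promoters and windows together, 21.1% rose and 37.7% fell. The split by window was not made for all genes, so the pattern is not shown to be particular to these genes. Across the 149 genes, the promoter and window values had a Pearson r of 0.744 and a Spearman rho of 0.73, and without Cox16 these were 0.83 and 0.724. These are descriptions over genes that share libraries and, in part, windows, and the window median includes the promoter itself.

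**Figure D3:**
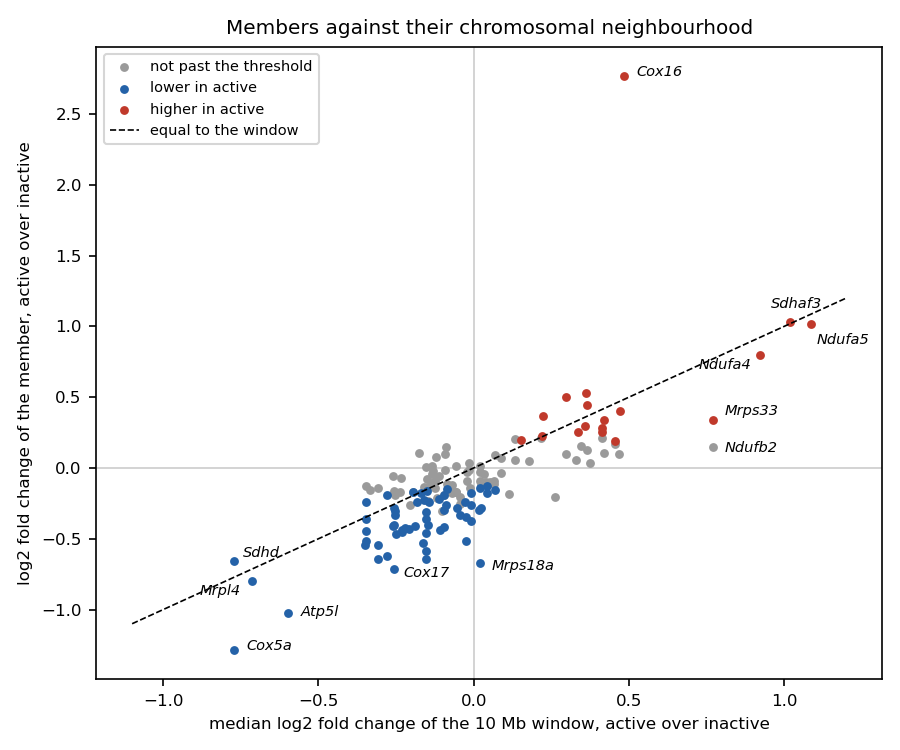
Log2 fold change (active over inactive) of each of the 149 promoter regions against the median log2 fold change of the tested regions in its 10 Mb window, coloured by limma call on deposited values. Points on the dashed line changed as much as their window. Cox16 lies far above the line, Sdhaf3 and Ndufa5 lie on or near it, and Ndufb2, Mrps33, Mrps18a and Cox5a lie below it.

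The lowest windows with such genes were on chromosome 9, at 50 to 60 Mb (-0.77, with Cox5a and Sdhd), 20 to 30 Mb (-0.71, with Mrpl4) and 40 to 50 Mb (-0.60, with Atp5l). Cox5a and Sdhd share a window, but only Cox5a was also lower relative to it. On chromosome 9 as a whole 7 of 9 genes fell and 0 rose, and the share for all promoters of that chromosome was not computed. The highest windows were on chromosome 6, at 20 to 30 Mb (1.09, with Ndufa5), 0 to 10 Mb (1.02, with Sdhaf3), 10 to 20 Mb (0.92, with Ndufa4) and 30 to 40 Mb (0.77, with Mrps33 and Ndufb2). Of the 18 promoters that rose, 4 lay on chromosome 6 (of 11 genes there), 5 on chromosome 5 (of 8) and 4 on chromosome 13 (of 9). The shares for all promoters of these chromosomes were not computed either, so these counts do not set the genes apart. The window with the most of these genes, 0 to 10 Mb of chromosome 19, held Cox8a, Mrpl11, Mrpl21, Ndufs8 and Ndufv1. Its median was -0.35, 4 of the 5 fell, and 0 of them passed relative to the window.

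By contrast, all 4 genes at 80 to 90 Mb of chromosome 10 (Mrpl54, Ndufs7, Timm13 and Uqcr11) fell and were also lower relative to a window median of -0.15. For Timm13 the centred call (-0.16) was lost without any of 5 of the 6 libraries in turn (adjusted p from 0.0596 to 0.211 by limma). It was also lost with the replicate block (adjusted p = 0.0512 by limma), 5 Mb or sliding windows, promoter regions as neighbourhood, quantile normalization and limma without its mean trend. On chromosome 10 as a whole, 7 of 8 genes fell (median log2 fold change -0.41) and 6 were lower relative to their windows. On chromosome 17, 9 of 11 genes fell while the median of their windows was -0.01, and 6 were lower relative to them. Over all gene promoters, 37.7% fell and 24.3% were lower relative to the window. The shares for all promoters of chromosomes 10 and 17 were not computed, so these counts do not set the genes apart from other promoters there.

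**Figure D4:**
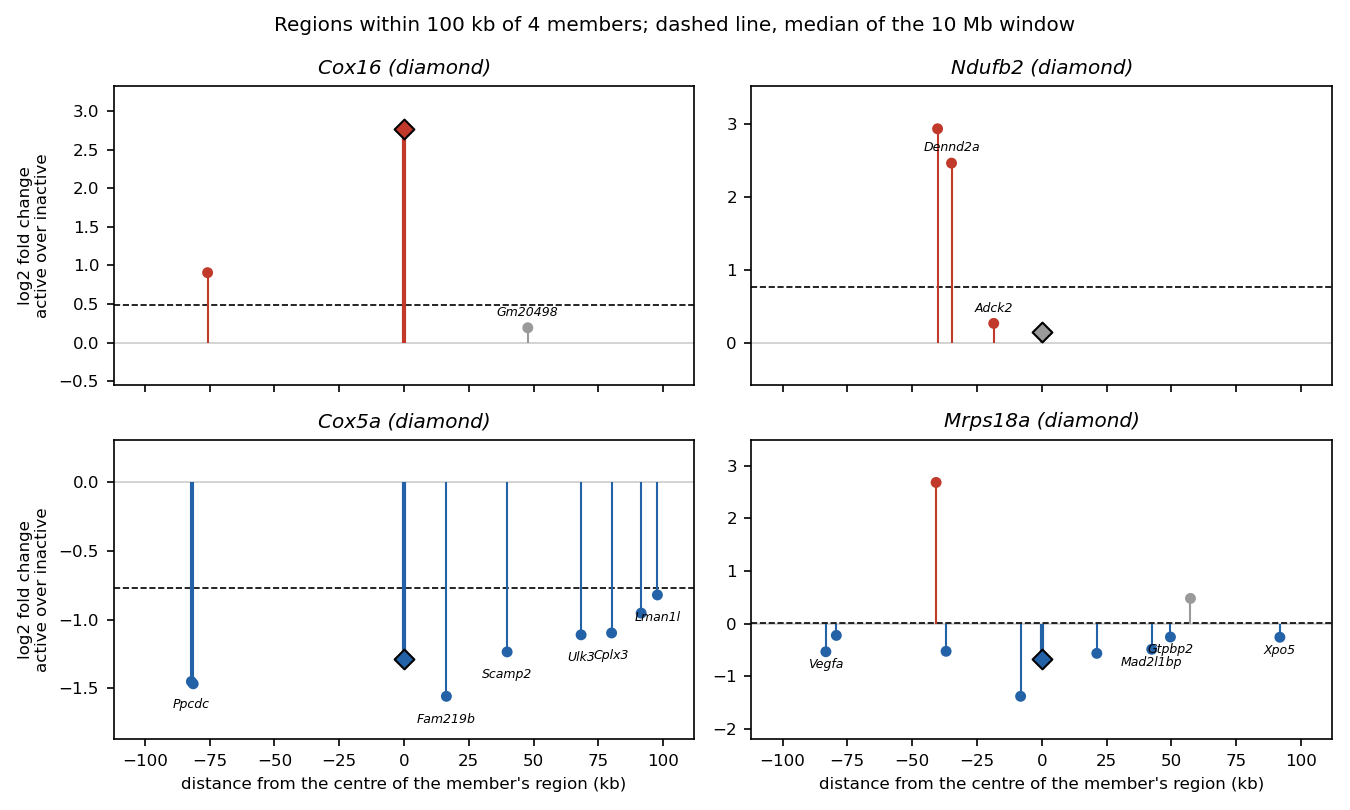
Log2 fold change (active over inactive) of every tested region within 100 kb of Cox16, Ndufb2, Cox5a and Mrps18a, plotted against the distance from the centre of the promoter region in kb. Diamonds are the 4 promoters themselves, colours give the limma call (red higher, blue lower, grey not past the threshold) and the dashed line is the median of the 10 Mb window. All 8 regions around Cox5a are lower, the 3 around Ndufb2 are higher, and around Mrps18a 8 of 10 are lower and 1 is higher. That higher region near Mrps18a passed the filter on low values through its active libraries alone. The region 91482 bp from Cox5a passed it through its inactive libraries alone.

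The 28 regions farther out or second in rank belonged to genes with a promoter region or to the 11 without one. At Cox7a2l, which takes part in respiratory supercomplex assembly, the region 2896 bp from the start site did not pass, with 391, 424 and 371 normalised reads in active libraries and 384, 383 and 433 in inactive libraries. The second region, at 3165 bp, had 17, 21 and 31 in active libraries against 2, 4 and 3 in inactive libraries. A region at 1598 bp from Tomm20l had 32, 30 and 39 in active libraries against 8, 11 and 7 in inactive libraries. Neither overlapped between groups, but both had few reads and passed the filter on low values through their active libraries alone, so no test is given for them. Timm21 had a second region at 723 bp that fell with its promoter, with 16, 23 and 31 in active libraries against 49, 41 and 46 in inactive libraries (-0.97, adjusted p = 0.000203 by limma). A region 3071 bp from Mrpl28 also fell (-0.89). No gene had regions called in opposite directions.

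Other genes of mitochondrial biogenesis were taken from a list of 91, of which 66 had a promoter region. Of these, 25 fell and 13 rose (median log2 fold change -0.12), and 14 were lower and 4 higher relative to the window. The shares of 37.9% lower and 19.7% higher were near those of all gene promoters, 37.7% and 21.1%. Relative to the window the shares were 21.2% lower and 6.06% higher, against 24.3% and 11.9%. Assembly factors and electron carriers outside the family names held 10 lower and 3 higher of 23, import partners 5 lower and 4 higher of 14, and mitochondrial DNA expression and translation 6 lower and 3 higher of 21. Among nuclear regulators, 4 were lower and 3 higher of 8. Nrf1, the gene of the factor named above, had 509, 564 and 549 normalised reads in active libraries, against 279, 296 and 318 in inactive libraries, without overlap (log2 fold change 0.86, adjusted p = 2.35e-14 by limma). It lies on chromosome 6, and relative to its window its value was 0.09 and did not pass. Centred on promoter regions alone, Nrf1 was higher by 0.21 (adjusted p = 0.00734 by limma). Immp2l, an inner membrane peptidase, had 302, 329 and 320 in active libraries, against 155, 153 and 172 in inactive libraries, without overlap, and was higher by the deposited (0.98) and the centred values (0.56).

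The other genes of that list with the highest values were Atpaf1, an assembly factor of complex V (log2 fold change 0.52, and 0.47 centred), and the copper chaperone Sco2 (0.49, and 0.14 centred, which did not pass). Centred on promoter regions alone, Sco2 was higher by 0.19 (adjusted p = 0.0105 by limma). The lowest of the list was Mterf4, which acts in mitoribosome biogenesis, with 38, 32 and 40 normalised reads in active libraries against 73, 72 and 66 in inactive libraries. Its groups did not overlap, and it fell by the deposited (-0.93) and the centred values (-0.81). The complex I assembly factors Ecsit (-0.76) and Foxred1 (-0.61) and the coactivator gene Ppargc1b (-0.64) fell, and none of them passed relative to its window. Tfam, which packages mitochondrial DNA, had 410, 429 and 417 in active libraries, against 356, 347 and 338 in inactive libraries, without overlap. It rose by both measures (0.27 and 0.45), and was named after its values were seen.

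Marker genes of fibroblasts and of other cell types were read in the same way. Of 16 fibroblast markers, 11 had a promoter region, with a sum of 2930 to 3125 normalised reads in active and 3714 to 3849 in inactive libraries. Of these 11, 8 fell (72.7%) and 2 rose (18.2%), against 37.7% and 21.1% of all gene promoters. Of 7 epithelial markers only Krt8 had one (134 to 171 in active and 78 to 89 in inactive libraries), and of 4 endothelial markers only Kdr (74 to 82 in active and 5 to 9 in inactive libraries). Of 3 neural and glial markers only Gfap had one, at 23 to 34 in active and 34 to 45 in inactive libraries. No promoter region was analysed here for the 5 blood, 3 pluripotency, 2 muscle and 2 liver markers. Whether these differences play a part in the values of the mitochondrial genes was not tested.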

How the data were processed

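ATAC-seq of 6 mouse NIH3T3 libraries was analysed, 3 with an active and 3 with an inactive ribozyme, grouped by the knock-in label. The deposited values are a score, read totals of regions after the authors' scaling of each library by a factor of its own and rounding, as judged from nearly equal totals and from whole numbers that never occur in some libraries. Reads before scaling were estimated from that spacing and not recovered exactly, so no count model was run. The tools listed in the submitters' processing notes were featureCounts, DESeq2 1.36.0, Picard 3.1.1, STAR 2.7.11a and Trimmomatic 0.39, with mm39. For the peak caller, the merging of peaks and any Tn5 shift, the answer is not given in the sources used here. The unsigned distance of a region to the start site is the authors' own annotation, per the file headers.

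Log2(value + 1) was fitted with limma (version 3.58.1, R 4.3.3, with empirical Bayes moderation by trend and robust settings) over 51253 regions whose mean was at least 10, with Benjamini-Hochberg adjustment over all of them and a threshold of 0.05. Fold changes on this scale understate changes of low regions. For window-centred values, the median deviation from each region's own mean over the tested regions of a fixed 10 Mb window was subtracted in each library, leaving out windows with fewer than 20 regions. The fit was tested on simulated data in which few regions changed and all had the same spread. That run differs from these data and does not bear on the calls reported here. Tables were handled with Python 3.11.15, numpy 2.4.6, pandas 2.3.3 and matplotlib 3.10.9.

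The genes, the subfamilies and the other lists were chosen with earlier results of these data known, so no test over a list was made. Genes were named by rule: the 6 highest and 6 lowest log2 fold changes and the 5 highest and 5 lowest centred ones past the threshold, the highest mean of each subfamily, complex II, genes called in opposite directions by both fits, and the 4 highest and 4 lowest of the other mitochondrial list. Further genes of a subfamily were named with their values as examples of its count. Promoter sequences came from RefSeq on GRCm38.p6, matched by symbol. The alternatives were other filters, pseudocounts, normalization, neighbourhoods, choices of region, limma without trend, a replicate block and each library left out.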

Additional observations from a re-analysis of the deposited data

How the results depend on the processing

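The 18 higher and 60 lower calls were 15 to 18 and 52 to 65 when each library was left out in turn, and relative to the window the 3 higher and 45 lower calls were 2 to 6 and 31 to 45. Of the other mitochondrial genes, 10 to 14 were higher and 20 to 25 lower. Limma without trend gave 11 higher and 40 lower, with 51 of the 78 calls kept, and relative to the window 1 higher and 19 lower, with 19 of 48 kept. Relative to the window, promoter regions as neighbourhood gave 10 higher and 25 lower, quantile normalization 13 higher and the whole chromosome 7 higher. Quantile normalization moved the median of all regions to -0.07, against -0.02. Uncentred medians that moved by over 1 SD of the library medians follow. With regions within 250 bp of the start site alone they were -0.030 for the small subunit and -0.166 for complex IV. With quantile normalization they were 0.093 for complex II, -0.119 for complex IV and -0.111 for outer membrane import. Centred medians that moved by over 1 SD of the library medians follow. With distal regions as neighbourhood they were -0.176 for the small subunit, -0.208 for complex IV, -0.222 for complex V, -0.118 for assembly factors and -0.120 for outer membrane import. With 5 Mb windows they were -0.044 for the small subunit and -0.166 for complex IV. With a mean of at least 30 they were -0.102 for complex IV. With promoter regions as neighbourhood they were -0.012 for the small subunit, -0.058 for complex IV, -0.046 for complex V, 0.035 for assembly factors and -0.007 for outer membrane import. With quantile normalization they were -0.049 for the small subunit, -0.041 for complex I, 0.127 for complex II, 0.022 for assembly factors, -0.157 for inner membrane import and -0.002 for outer membrane import. With sliding windows of 5 Mb to either side they were -0.071 for the small subunit and -0.025 for complex II. With the whole chromosome as neighbourhood they were -0.056 for the small subunit, -0.152 for complex I, -0.262 for complex II, -0.004 for complex III, -0.085 for complex IV, -0.037 for complex V and -0.081 for outer membrane import. Without each library in turn, the uncentred medians ran from -0.024 to 0.046 for the small subunit, -0.216 to -0.159 for complex I, -0.013 to 0.047 for complex II, -0.036 to 0.117 for complex III, -0.127 to -0.078 for complex IV, -0.120 to -0.039 for complex V, -0.171 to -0.078 for assembly factors and -0.193 to -0.120 for outer membrane import. Without each library in turn, the centred medians ran from -0.129 to -0.057 for the small subunit, 0.003 to 0.081 for complex II, -0.145 to -0.103 for complex IV and -0.073 to -0.020 for outer membrane import. Of named genes, the centred value turned its sign for Ndufa5 (0.697), Ndufa4 (0.481), Sdhd (-0.368), Mrps33 (0.024) and Tomm6 (0.128) with the whole chromosome, and for Mrpl18 (0.031) and Tomm6 (0.192) with promoter regions as neighbourhood. In all of these the cause was not tested. Named genes kept their uncentred direction and side of the threshold in 400 of the comparisons, lost it in 13 and gained it in 1; centred, 495 kept it, 40 lost it, 20 gained it and 7 turned. The replicate numbers did not pair the samples (correlations of same-numbered deviations 0.001, -0.006 and -0.016), and with the replicate block 18 genes were higher and 58 lower, and relative to the window 3 and 44. Counting error is larger in the shallower active libraries.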
